A study of Mus musculus with 6 samples.

Results

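The genes described here are 9 genes of calcium cycling and of the calcium/calmodulin-dependent kinase CaMKII in the heart muscle cell. Ryr2, Casq2, Trdn and Jph2 belong to the calcium release unit, Atp2a2 and Pln to calcium uptake, Slc8a1 to calcium extrusion, and Camk2d and Camk2b to the CaMKII family. They were taken by symbol from a deposited table of 26835 mouse genes. Each symbol had 1 row, and all 9 passed the filter on low values, a mean of at least 1 FPKM over the libraries, that left 10329 genes to test. FPKM is the number of sequenced fragments per kilobase of gene, scaled to the fragments mapped in the library, so it allows levels to be compared between genes.

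Messenger RNA was sequenced from hearts of wild-type C57BL/6 mice aged 7 to 8 weeks, in 2 libraries for each of 3 groups. CFZ_EA mice received carfilzomib at 8 mg/kg by intraperitoneal injection and electroacupuncture at the PC6 acupoint, CFZ mice received carfilzomib at 8 mg/kg alone, and control mice were injected with 10% DMSO. Carfilzomib is an irreversible proteasome inhibitor used against multiple myeloma that can harm the heart, and electroacupuncture passes a current through needles in the skin. The design has no group with electroacupuncture and no carfilzomib, all libraries carry the same list of days (0, 2, 4 and 6) without an event for each, and the labels do not name the part of the heart or say whether replicates were separate mice. The spread behind each p-value is thus that between libraries, and it may be technical.

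In a heart muscle cell, a small entry of calcium through channels in the surface membrane opens the ryanodine receptor RYR2, which releases much more calcium from the sarcoplasmic reticulum, and this starts contraction. Relaxation follows when the pump SERCA2a, encoded by Atp2a2, returns calcium to the reticulum and the exchanger NCX1, encoded by Slc8a1, moves calcium out of the cell in return for sodium. Phospholamban, encoded by Pln, slows SERCA2a until it is phosphorylated, and CaMKII phosphorylates both phospholamban and RYR2.

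Estimated counts totalled 50013990 to 75742448 per library, and genes of the mitochondrial genome took 14.8% to 21.3% of them. The heart label was checked on 16 cardiomyocyte structural genes, all of which passed the filter, and their summed level ran from 26365 to 31456 FPKM. Control replicate 2 stood highest for some other cell types, among them 10 fibroblast and matrix markers. Those summed to 189 and 203 FPKM in CFZ_EA, 165 and 129 FPKM in CFZ, and 209 and 1089.5 FPKM in control. The genes of that list differed in extent. In control replicates 1 and 2, Col1a1 had 21.3 and 287 FPKM, Dcn 43.4 and 63.8 FPKM, and Tcf21 4.89 and 5.34 FPKM. A list of 8 macrophage and leukocyte markers summed to 216 and 253 FPKM in CFZ_EA, 215 and 245 FPKM in CFZ, and 286 and 838 FPKM in control. The 10 atrial markers summed to 1209.9 and 6014 FPKM in CFZ_EA, 542 and 423 FPKM in CFZ, and 3099 and 1931 FPKM in control. Erythroid markers (5) summed to 2466 and 3470 FPKM in CFZ_EA, 2654 and 3316 FPKM in CFZ, and 4962 and 5666 FPKM in control. Epicardial and mesothelial markers (6) summed to 4.52 and 11.7 FPKM, 4.13 and 3.74 FPKM, and 19.2 and 45.1 FPKM in the same groups. In these and in the fibroblast and macrophage lists, both control libraries were above every carfilzomib library. The 8 endothelial markers ran from 255 to 342 FPKM, with 311 and 308 FPKM in control. No marker in these lists was at 0 in all libraries. In bulk tissue, fewer cells of a type and less RNA per cell cannot be told apart.

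Levels of the 9 genes spanned 3 orders of size. Atp2a2 was the highest, with a mean of 1431 FPKM over the 6 libraries and rank 38 among the 10329 tested genes. Casq2, Pln and Jph2 followed at 207, 205 and 146 FPKM. Ryr2 had 14.9 FPKM, Trdn and Slc8a1 had 5.50 and 5.47 FPKM, Camk2d had 1.95 FPKM and Camk2b had 1.23 FPKM. Casq2 and Pln differed in level by less than the spread between their libraries, as did Trdn and Slc8a1. Rank 9645 of 10329 put Camk2b near the filter.

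The position of Camk2d in this order depended on which length its reads were divided by. For at least 99.9% of genes with 200 counts or more in a library, the deposited FPKM equalled the count divided by the total length of all exons annotated for the gene in GENCODE M21, times 1 constant per library, to within 2%. That length was 22493 bases for Camk2d, which has 28 annotated transcripts, whereas its longest transcript has 5524 bases. Per kilobase of the longest transcript, Camk2d averaged 8.70 CPM (counts scaled to the library total), against 2.14 CPM per kilobase of all exons. On that scale Camk2d lay above Slc8a1, which had 6.09 CPM per kilobase of its longest transcript, and Pln lay above Casq2. The all-exon length was 1.71 times the longest transcript for Ryr2, 2.07 times for Trdn and 2.21 times for Camk2b. In comparisons of 1 gene between libraries the length cancels, provided that the mix of its transcripts is alike in them. That mix was not tested.

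**Figure D1:**
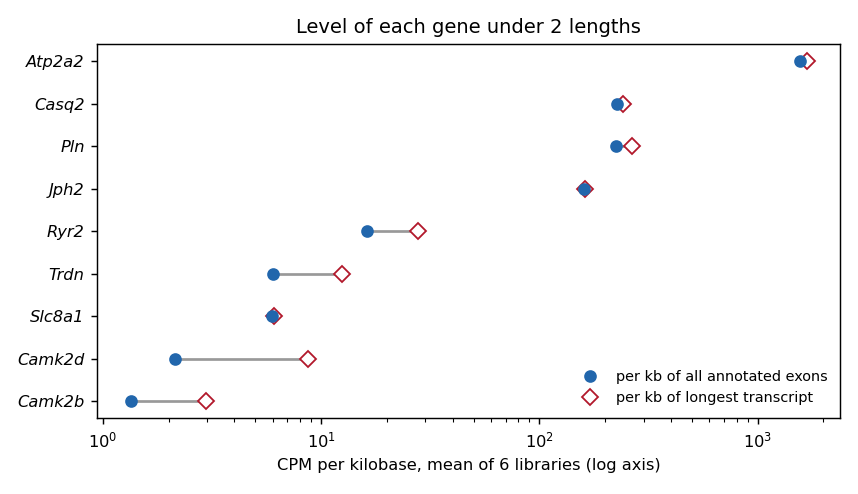
Mean level of the 9 genes over 6 libraries as CPM per kilobase on a log axis, with filled circles for the length of all annotated exons and open diamonds for the longest annotated transcript. Camk2d lies at 8.70 with the longest transcript and at 2.14 with all exons, while Jph2 and Slc8a1 lie at nearly the same level with both lengths.

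Among genes of the calcium release unit, Ryr2, Casq2 and Trdn overlapped between all groups, and Jph2 was higher in both CFZ libraries than in both control libraries. Ryr2 encodes the release channel itself, on chromosome 13 from 11553102 to 12106945 (GRCm38, minus strand). It measured 15.7 and 18.4 FPKM in CFZ_EA, 16.4 and 13.6 FPKM in CFZ, and 9.39 and 15.8 FPKM in control. Control replicate 1 was the lowest library and control replicate 2 lay within the range of the carfilzomib groups, so the groups overlapped in every comparison. Between CFZ and control the log2 fold change of Ryr2 was 0.32 (95% interval -0.24 to 0.87), and without control replicate 1 it was 0.043. For CFZ_EA against control it was 0.51 (-0.04 to 1.07), with 0.25 without control replicate 1 and 0.86 without control replicate 2. Neither passed the edgeR quasi-likelihood test with Benjamini-Hochberg adjustment over all tested genes (adjusted p = 0.735 and 0.848).

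Casq2 encodes cardiac calsequestrin, the protein that stores calcium inside the reticulum next to the release channel (chromosome 3, 102086415 to 102146514). It measured 231 and 184 FPKM in CFZ_EA, 253 and 194 FPKM in CFZ, and 197 and 185 FPKM in control. Replicate 1 was above replicate 2 in each group, and all 3 groups overlapped. The log2 fold change was 0.27 ± 0.17 (SE) for CFZ against control and -0.09 ± 0.17 for CFZ_EA against CFZ.

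Trdn encodes triadin, which anchors calsequestrin to the ryanodine receptor (chromosome 10, 33080554 to 33476709). It measured 4.53 and 8.33 FPKM in CFZ_EA, 4.47 and 5.43 FPKM in CFZ, and 6.52 and 3.73 FPKM in control. The highest library was CFZ_EA replicate 2 and the lowest was control replicate 2, and the replicates of CFZ_EA, and likewise those of control, lay further apart than any pair of group means. Without CFZ_EA replicate 2, the log2 fold change for CFZ_EA against CFZ was -0.14, against 0.39 with all libraries. The interval of that fold change, -0.60 to 1.37, leaves a difference of more than 2-fold within reach. Per library, the FPKM of Trdn was between 0.0177 and 0.0453 of that of Casq2. This ratio rests on the all-exon lengths, which were 2.07 times the longest transcript for Trdn and 1.07 times for Casq2.

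Jph2 encodes junctophilin 2, which holds the surface membrane and the reticulum close together at the release site (chromosome 2, 163336242 to 163397993). It measured 168 and 134 FPKM in CFZ_EA, 161 and 145 FPKM in CFZ, and 128 and 139.5 FPKM in control. Both CFZ libraries lay above both control libraries, while CFZ_EA overlapped with each of the other groups. At 0.25 ± 0.14, the log2 fold change between CFZ and control did not pass (edgeR adjusted p = 0.695), and with 1 library left out it ran from 0.22 to 0.27.

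Both calcium uptake genes were high in every library, and their groups overlapped in every comparison. Atp2a2, on chromosome 5 from 122453513 to 122502174, measured 1609.9 and 1279.7 FPKM in CFZ_EA, 1696 and 1374 FPKM in CFZ, and 1377 and 1249 FPKM in control. As with Casq2, replicate 1 was above replicate 2 in each group. The log2 fold change was 0.27 ± 0.22 for CFZ against control and -0.07 ± 0.22 for CFZ_EA against CFZ, so a change of 0.66-fold to 1.37-fold with electroacupuncture lay within its 95% interval.

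Pln, on chromosome 10 from 53337667 to 53345987, measured 212 and 198 FPKM in CFZ_EA, 227 and 209 FPKM in CFZ, and 218 and 168 FPKM in control. Control replicate 2 was the lowest, and control replicate 1 lay between the CFZ libraries. Between CFZ and control the log2 fold change was 0.22, which became -0.02 when control replicate 2 was left out and 0.50 when control replicate 1 was. Exons of Gm47644, a gene model on the opposite strand with a mean of 670 counts, overlap 59.6% of the exon bases of Pln, while Pln had 25526 to 45406 counts per library. The library protocol marks strand, but whether counting used it is not stated in the sources, so reads of the pair may not have been told apart.

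The ratio of phospholamban to pump messages differed between groups by less than the spread between libraries. The FPKM of Pln divided by that of Atp2a2 was 0.131 and 0.155 in CFZ_EA, 0.134 and 0.152 in CFZ, and 0.159 and 0.135 in control. The means were 0.143 ± 0.0166, 0.143 ± 0.0129 and 0.147 ± 0.0167 (SD, n = 2 each), and the ranges of all 3 groups overlapped. With 2 libraries against 2, an exact two-sided permutation test cannot go below p = 0.33, so none was run.

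**Figure D2:**
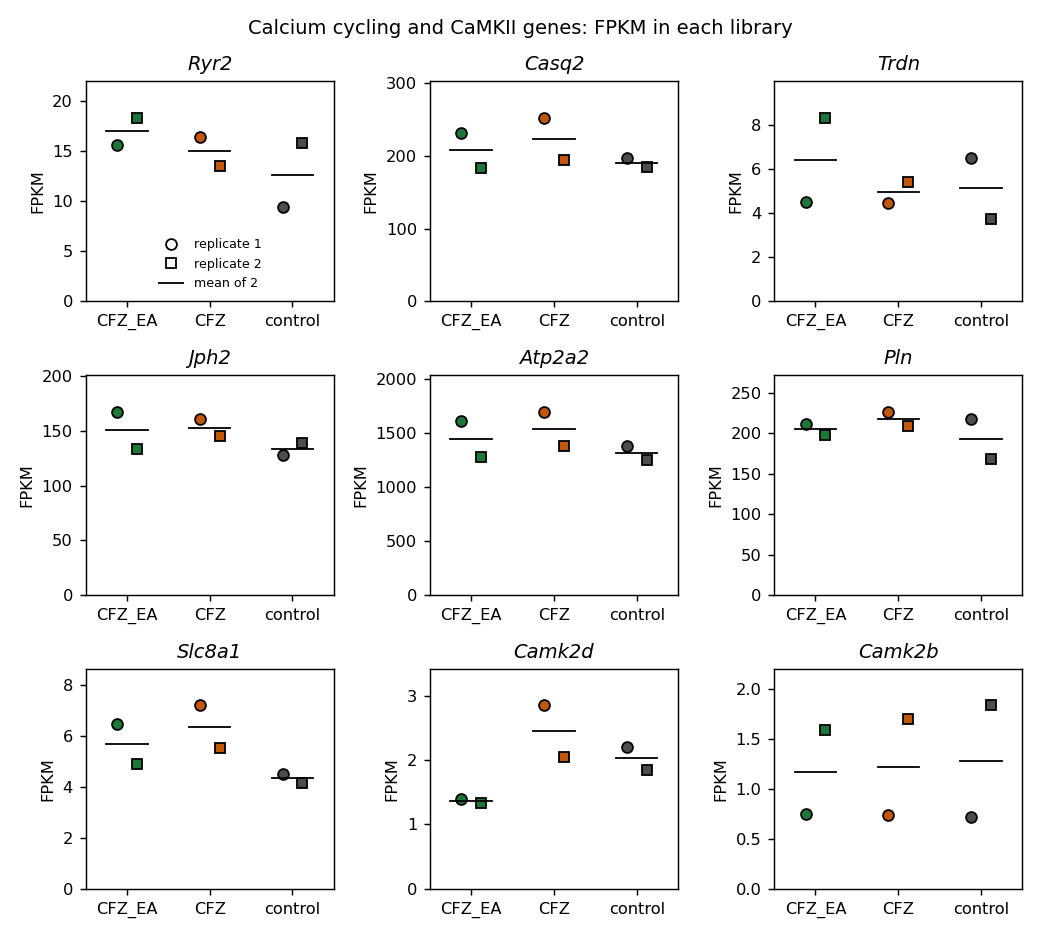
FPKM of the 9 genes in each library, with circles for replicate 1, squares for replicate 2 and a line at the mean of the 2. Slc8a1 is above both control libraries in all 4 carfilzomib libraries, Camk2d is lowest in both CFZ_EA libraries, and Camk2b splits by replicate number in all 3 groups.

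Slc8a1 had the largest difference between CFZ and control among the 9 genes. The gene, on chromosome 17 from 81373105 to 81738377, measured 6.48 and 4.92 FPKM in CFZ_EA, 7.21 and 5.52 FPKM in CFZ, and 4.53 and 4.14 FPKM in control. Every carfilzomib library was above both control libraries, and CFZ_EA and CFZ overlapped. The fold for CFZ against control was 1.51, with a 95% interval of 1.11 to 2.06, and its log2 value was 0.60 ± 0.18. It did not pass over all genes (edgeR adjusted p = 0.608, unadjusted p = 0.0162), and it ranked 247 of 10329 by p. Against control, CFZ_EA had a fold of 1.37 (1.01 to 1.86) with an adjusted p = 0.848 by edgeR. Both comparisons share the control libraries, so they are not separate evidence. With 1 library left out the log2 fold change ran from 0.45 to 0.74 for CFZ and from 0.27 to 0.62 for CFZ_EA.

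Camk2d had the largest difference between CFZ_EA and CFZ. It encodes the delta subunit, the main CaMKII isoform known in heart muscle (chromosome 3, 126596302 to 126846326). The gene measured 1.40 and 1.34 FPKM in CFZ_EA, 2.85 and 2.04 FPKM in CFZ, and 2.21 and 1.85 FPKM in control. Both CFZ_EA libraries were below all 4 other libraries and differed from each other by less than any other pair of replicates of this gene. For CFZ_EA against CFZ the fold was 0.568, with a 95% interval of 0.414 to 0.779, and the log2 value was -0.82 ± 0.19. Its unadjusted p of 0.00463 was the 40th smallest of 10329, and the adjusted p was 0.9997 by edgeR's quasi-likelihood test. DESeq2, run on the same counts, gave a log2 fold change of -0.82 with an adjusted p of 0.0433 and so called it. Over the alternatives tried, the adjusted p ran from 0.0433 to 1, and the log2 fold change was -0.62 without CFZ replicate 1 and -0.99 without CFZ replicate 2. Against control, Camk2d in CFZ_EA had a log2 fold change of -0.51 ± 0.19 (edgeR adjusted p = 0.848), which was -0.29 without control replicate 1. For CFZ against control it was 0.31 ± 0.19, with overlapping groups, and it ran from 0.11 to 0.52 with 1 library left out.

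The promoter windows of Slc8a1 and Camk2d are shown because these genes had the largest differences of the 9, and that of Casq2, of the 9 genes the closest in pattern to Atp2a2, is shown beside them. Each runs from 250 bases before to 50 after the gene's start in RefSeq on GRCm38.p6, and capitals mark matches on either strand. The GATA motif was searched as GATAA. For the E-box it was CANNTG. The GC box was GGGCGG. The TATA box was searched as TATAAA. The M-CAT motif was CATTCC. The Slc8a1 window is chr17:81738338-81738637 on the minus strand, the Camk2d window chr3:126596701-126597000 and the Casq2 window chr3:102086165-102086464, both on the plus strand. The RefSeq start used for Camk2d lies 649 bases downstream of the start of the measured gene, so its window lies within the gene's span.
Slc8a1: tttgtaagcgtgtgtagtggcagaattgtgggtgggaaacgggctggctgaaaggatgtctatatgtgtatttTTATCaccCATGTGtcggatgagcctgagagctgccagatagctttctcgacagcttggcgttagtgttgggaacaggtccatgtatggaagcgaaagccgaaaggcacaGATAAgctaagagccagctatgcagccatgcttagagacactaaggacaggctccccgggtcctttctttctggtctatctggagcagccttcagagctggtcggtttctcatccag
Camk2d: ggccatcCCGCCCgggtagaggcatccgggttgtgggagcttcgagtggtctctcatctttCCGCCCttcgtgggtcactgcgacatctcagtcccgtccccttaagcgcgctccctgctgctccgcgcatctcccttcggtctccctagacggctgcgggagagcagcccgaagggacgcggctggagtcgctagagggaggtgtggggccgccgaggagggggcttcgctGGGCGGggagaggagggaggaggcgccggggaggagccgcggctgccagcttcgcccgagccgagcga
Casq2: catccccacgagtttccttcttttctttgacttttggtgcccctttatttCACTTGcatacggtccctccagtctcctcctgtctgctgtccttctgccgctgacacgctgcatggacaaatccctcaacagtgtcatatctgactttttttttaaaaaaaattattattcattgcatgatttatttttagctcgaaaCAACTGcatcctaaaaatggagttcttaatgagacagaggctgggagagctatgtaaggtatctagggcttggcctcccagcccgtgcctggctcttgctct

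The Slc8a1 window held 2 GATA matches and 1 E-box match, the Camk2d window 3 GC boxes, and the Casq2 window 2 E-box matches, with no overlap between motifs. Of 32851 RefSeq promoter windows, 25.4% held the GATA motif, 72.3% the E-box, 35.7% the GC box, 13.6% the TATA box and 14.7% the M-CAT motif. The windows differed in base composition, with 50.7% G or C for Slc8a1, 70.3% for Camk2d and 44.7% for Casq2. These matches describe letters and show no binding.

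Camk2b, which encodes the beta subunit known mostly from brain (chromosome 11, 5969644 to 6066362), differed by replicate number and not by group. It measured 0.755 and 1.59 FPKM in CFZ_EA, 0.738 and 1.70 FPKM in CFZ, and 0.724 and 1.84 FPKM in control. Replicate 2 was 2.11, 2.31 and 2.54 times replicate 1 in CFZ_EA, CFZ and control. The range was 0.724 to 0.755 FPKM over the libraries numbered 1 and 1.59 to 1.84 FPKM over those numbered 2. Of 10329 tested genes, 5 (0.0484%) were higher in replicate 2 by at least 1 log2 unit in all 3 groups, and Camk2b was among them, a pattern noticed after its values were seen. Counts for Camk2b ran from 417 to 1212 per library. The labels give the replicate numbers no meaning, and across all tested genes the replicate differences of the groups correlated at 0.08, -0.07 and -0.07 (Pearson's r over genes, which are not independent). The group log2 fold changes were 0.03, -0.06 and -0.03 for CFZ against control, CFZ_EA against CFZ and CFZ_EA against control, with standard errors of 0.61 in each.

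Camk2g, the gamma subunit gene, had the highest FPKM of the 4 CaMKII subunit genes in 5 of the 6 libraries, an order that turned with the length used. Per kilobase of all exons, Camk2g averaged 4.78 CPM and Camk2d 2.14 CPM, whereas per kilobase of the longest transcript Camk2g averaged 8.26 CPM and Camk2d 8.70 CPM. Camk2g measured 4.33 and 5.63 FPKM in CFZ_EA, 4.49 and 5.28 FPKM in CFZ, and 2.36 and 4.00 FPKM in control. All carfilzomib libraries were above both control libraries, and the log2 fold changes were 0.69 ± 0.26 for CFZ and 0.73 ± 0.26 for CFZ_EA against control (edgeR adjusted p = 0.621 and 0.848). Leaving out control replicate 1 gave 0.42 and 0.46, and leaving out control replicate 2 gave 1.03 and 1.07. Camk2a measured 1.31 and 0.782 FPKM in CFZ_EA, 1.45 and 1.51 FPKM in CFZ, and 4.67 and 0.879 FPKM in control, where replicate 1 alone stood high. Camk2d made up 18.0% and 14.3% of the summed FPKM of the 4 subunit genes in CFZ_EA, 29.9% and 19.4% in CFZ, and 22.1% and 21.6% in control. The sum was 7.80 and 9.35 FPKM in CFZ_EA, 9.53 and 10.5 FPKM in CFZ, and 9.97 and 8.56 FPKM in control. Shares within the family rest on the all-exon lengths described above and understate Camk2d relative to a single transcript.

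**Figure D3:**
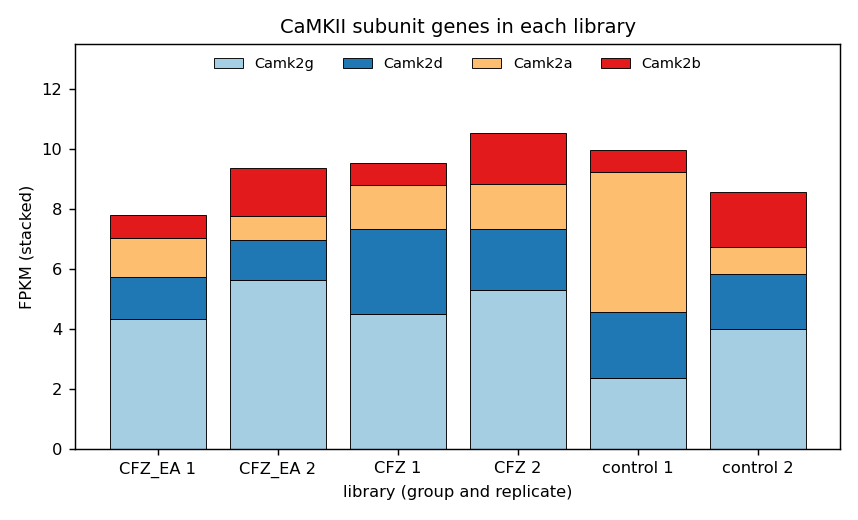
Stacked FPKM of the 4 CaMKII subunit genes in each library. The Camk2d segment is smallest in both CFZ_EA libraries (1.40 and 1.34 FPKM), the Camk2b segment is larger in every replicate 2, and Camk2a is high in control replicate 1 alone (4.67 FPKM).

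Most close relatives of the other genes were low. Ryr1, the skeletal muscle release channel, ranged from 0.00235 to 0.00622 FPKM, and Ryr3 from 0.0355 to 0.153 FPKM. Atp2a1, the fast skeletal muscle pump, reached 0.647 FPKM, the exchangers Slc8a2 and Slc8a3 reached 0.384 and 0.0963 FPKM, and Jph1 reached 2.11 FPKM. Atp2a3, which encodes the pump SERCA3, ranged from 2.80 to 3.34 FPKM, above the FPKM of Camk2b in every library. The highest was Casq1, skeletal calsequestrin, with 17.0 and 16.9 FPKM in CFZ_EA, 9.17 and 7.97 FPKM in CFZ, and 18.5 and 11.3 FPKM in control. Both CFZ libraries were below all other libraries for Casq1, which is described here by its level only.

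By the edgeR test, 0 of the 9 genes passed in any comparison. For CFZ against control, 0.029% of all tested genes passed, against 0.0194% for CFZ_EA against CFZ and 0% for CFZ_EA against control. At an unadjusted p under 0.05, 1 of the 9 passed for CFZ against control (Slc8a1), 1 for CFZ_EA against CFZ (Camk2d) and 2 for CFZ_EA against control (Slc8a1 higher and Camk2d lower), where 7.72%, 3.09% and 5.13% of all tested genes did. By direction, 1.82% of tested genes were higher and 5.9% lower for CFZ against control, 2.01% higher and 1.07% lower for CFZ_EA against CFZ, and 1.47% higher and 3.66% lower for CFZ_EA against control. DESeq2 called 0, 1 and 0 of them, where it called 1.34%, 0.532% and 0.494% of all tested genes. In FPKM, CFZ lay above control without overlap for 2 of the 9 genes, Slc8a1 and Jph2, and below it for 0, against 12.5% and 20.8% of all tested genes. CFZ_EA lay below CFZ for 1 gene, Camk2d, against 17.7% of tested genes, and above it for 0, against 15.1%. CFZ_EA lay above control for 1 gene, Slc8a1, and below it for 1, Camk2d, against 10.5% and 22.1%. In either direction the groups did not overlap for 33.3%, 32.8% and 32.6% of all tested genes in the 3 comparisons, so 2, 1 and 2 of 9 genes are at or below that background.

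As a list, 8 of the 9 genes had a fitted log2 fold change above 0 for CFZ against control, with a median of 0.27, where 49.5% of all tested genes did, with a median of -0.0034. The 16 cardiomyocyte structural genes had 15 above 0 and a median of 0.22. The median centred level of these structural genes was 0.01 and 0.15 in the CFZ libraries and -0.0023 and -0.28 in the control libraries on the log2 CPM scale. That of the 9 genes was 0.14 and 0.10 in the CFZ libraries and -0.04 and -0.26 in the control libraries. When the counts were scaled to the structural genes in place of all genes, the median of the 9 was 0.06 and 7 were above 0. This scaling shifts all genes nearly alike, and the median over all tested genes moved with it, from -0.0034 to -0.23. Atp2a2, Casq2, Jph2, Pln and Ryr2 then had log2 fold changes between 0.01 and 0.06, and Slc8a1 had 0.39, against 0.60 under the scaling to all genes. Its unadjusted p by edgeR was then 0.0867, above the 0.05 that it passed before. Without control replicate 2, in which the matrix and macrophage markers were highest, the median of the 9 was 0.16, and without control replicate 1 it was 0.42. The part of cell composition in these differences was not tested, since a shift of all genes together cannot separate it.

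For CFZ_EA against CFZ the median of the 9 genes was -0.07, with 2 above 0, where 48.1% of all tested genes were, against a median of -0.0084 over all tested genes and -0.03 over the structural genes. It was 0.03 without CFZ_EA replicate 2 and -0.15 without CFZ_EA replicate 1. Scaling to the structural genes changed little in this comparison, with a median of 0.011 over all tested genes, and Camk2d had -0.81. Against control, the CFZ_EA median was 0.20 with 7 genes above 0, where 49.7% of all tested genes were. When scaled to the structural genes it was -0.0001 with 4 above 0, and the median over all tested genes was -0.21. In that scaling Slc8a1 had 0.26 (edgeR unadjusted p = 0.232) and Camk2d had -0.70 against control.

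**Figure D4:**
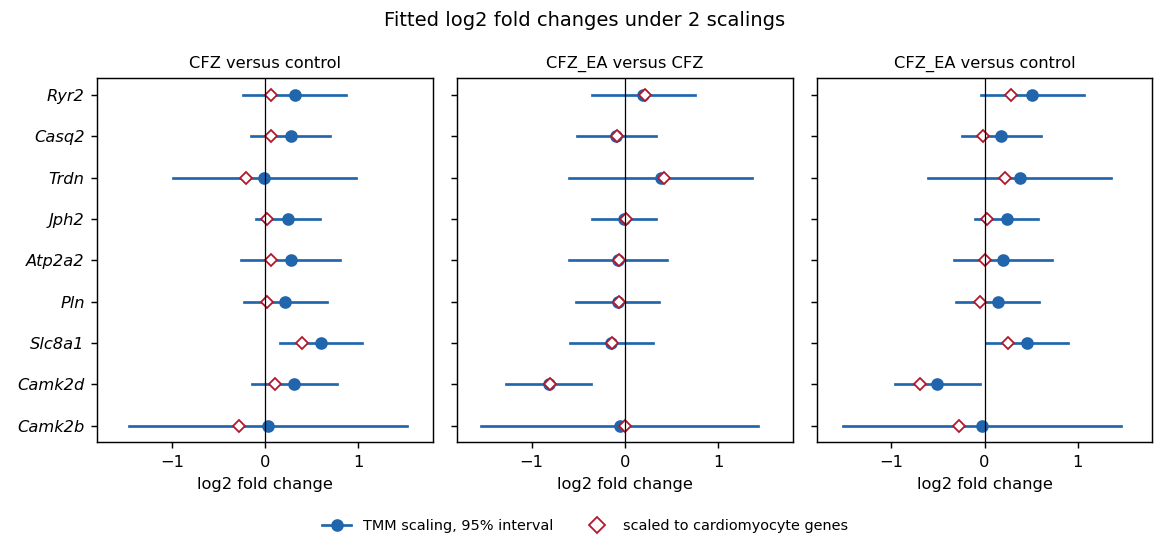
Log2 fold change of each gene in 3 comparisons, with filled circles and 95% intervals under TMM scaling over all genes and open diamonds when scaled to 16 cardiomyocyte structural genes. Values against control move down with the second scaling, which shifts all genes of a comparison nearly alike. Most of them come closer to 0, while Camk2d for CFZ_EA against control goes from -0.51 to -0.70. For CFZ_EA against CFZ the shift is small for every gene, and Camk2d lies at -0.81.

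The 9 genes fell into patterns that differed in how closely they followed each other. Atp2a2 and Casq2 were the closest pair, with a root mean square difference of 0.03 between their centred log2 CPM over 6 libraries, followed by Atp2a2 with Jph2 at 0.09. Outside the 9 genes, the tested genes nearest to Atp2a2 were Nipsnap2, Sdha and Foxo3 at 0.02 to 0.03, and those nearest to Casq2 were Acss1, Sdha and Elp4 at 0.03. Pln lay nearest to Coq4 at 0.02, Jph2 to Rab28 at 0.02 and Ryr2 to Vps9d1 at 0.10. The nearest to Camk2d were Paip2 at 0.08 and Gja1, the main ventricular connexin, at 0.10. Trdn lay nearest to Dnm1l and the mitochondrial gene mt-Co2, both at 0.09, and Camk2b had no close match, with Kif13b nearest at 0.21. Such nearness over 6 libraries is a description.

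**Figure D5:**
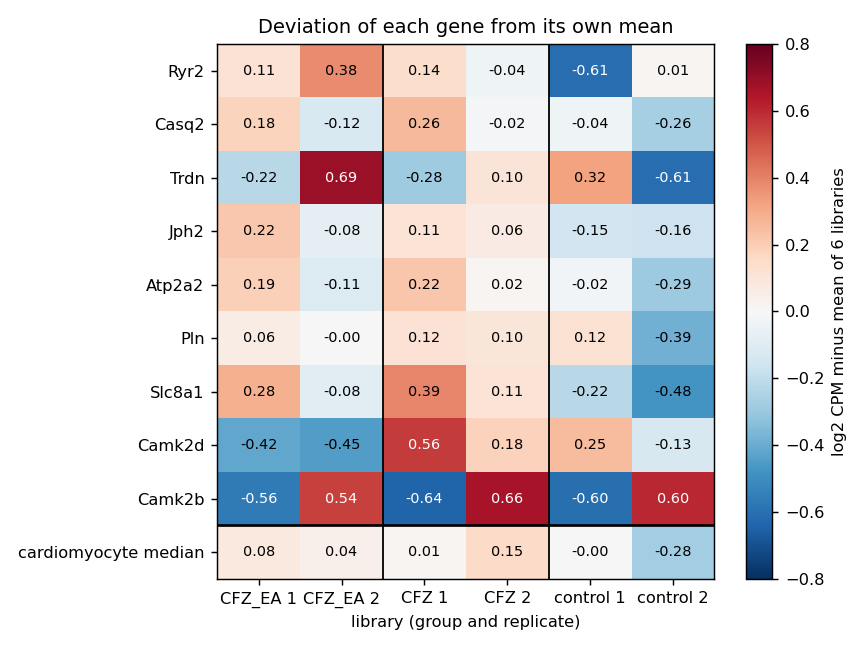
Deviation of log2 CPM from the mean of the 6 libraries for the 9 genes and, in the last line, the median of 16 cardiomyocyte structural genes. Casq2 and Atp2a2 share 1 pattern, control replicate 2 is low in most rows and in the structural median (-0.28), and Camk2b alternates with replicate number.

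A wider list of 97 other calcium handling genes, 69 of them tested, had 0 called by edgeR and 0 by DESeq2 in each comparison. At an unadjusted p under 0.05 it had 1 higher and 6 lower for CFZ against control, 1 and 1 for CFZ_EA against CFZ, and 2 and 4 for CFZ_EA against control. Over all tested genes, 1.82% were higher and 5.9% lower, 2.01% higher and 1.07% lower, and 1.47% higher and 3.66% lower in these comparisons, so the counts of the 69 genes are near the background. Their medians were 0.02, 0.01 and 0.08. With all 6 libraries, none of the genes of this list named in the next paragraphs passed over all genes. Their edgeR adjusted p lay between 0.608 and 0.9997. The atrial markers named beside Sln are not part of this list and are given by level only.

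The L-type calcium channel is the entry route of the trigger calcium. Among 10 tested genes of its subunits and regulators, 7 were lower for CFZ against control, with a median of -0.22. For CFZ_EA against control 8 were lower, with a median of -0.38. Of all 10329 tested genes, 5220 and 5194 were lower in these comparisons. Cacna1c, the pore subunit, measured 7.36 and 7.09 FPKM in CFZ_EA, 7.98 and 6.96 FPKM in CFZ, and 7.40 and 7.44 FPKM in control. Its log2 fold change against control was 0.06 for CFZ and 0.03 for CFZ_EA. Cacna2d1, the alpha2delta subunit that helps the channel reach the membrane, measured 2.04 and 0.810 FPKM in CFZ_EA, 3.72 and 3.82 FPKM in CFZ, and 3.57 and 3.13 FPKM in control. Both CFZ_EA libraries were below the other 4, and the log2 fold change against CFZ was -1.40 ± 0.40, with -0.89 without CFZ_EA replicate 2 and -2.18 without CFZ_EA replicate 1. Cacnb3, a beta subunit, measured 1.05 and 1.42 FPKM in CFZ_EA, 1.21 and 1.02 FPKM in CFZ, and 1.65 and 4.13 FPKM in control. Between CFZ and control the log2 fold change of Cacnb3 was -1.29, with -0.57 without control replicate 2, the library with high matrix and macrophage markers, and -1.76 without control replicate 1, where edgeR called it (adjusted p = 0.0339). Gem, a small GTPase that restrains the channel, measured 0.898 and 1.28 FPKM in CFZ_EA, 1.03 and 0.727 FPKM in CFZ, and 1.36 and 2.62 FPKM in control, and Cacng7, a gamma subunit, measured 1.77 and 2.22 FPKM in CFZ_EA, 2.14 and 1.96 FPKM in CFZ, and 2.68 and 4.57 FPKM in control. For both, control replicate 2 was the highest library.

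The next list was built around SERCA2a regulators, other calcium pumps and the sodium pump. Of its 15 tested genes, 7 were higher and 8 lower for CFZ against control, with a median of -0.01. Sln, which encodes the atrial pump inhibitor sarcolipin, measured 22.0 and 131 FPKM in CFZ_EA, 7.23 and 0.483 FPKM in CFZ, and 77.2 and 37.7 FPKM in control. The atrial markers Nppa, Myl7, Myl4, Dkk3 and Pam had the 6 libraries in the same order as Sln, and of these Myl7 measured 241.5 and 1381 FPKM in CFZ_EA, 77.6 and 11.5 FPKM in CFZ, and 713 and 401 FPKM in control. Other markers of the atrial list followed in part or not at all. Stard10 departed from that order only in the CFZ libraries, with 7.31 and 7.79 FPKM. Bmp10 was highest in CFZ_EA replicate 2 (55.7 FPKM) and control replicate 1 (22.6 FPKM), but had 0.167 FPKM in control replicate 2. Kcnk3 ran from 61.1 to 69.1 FPKM over all libraries, and Clu was highest in control replicate 2 (215 FPKM). The share of atrial tissue was not tested. Sln had log2 fold changes of -3.90 ± 1.35 for CFZ against control and 4.37 ± 1.38 for CFZ_EA against CFZ, which without CFZ replicate 1 were -6.78 and 7.25, and without CFZ_EA replicate 2 the second was 2.54. Strit1, which encodes the pump activator DWORF, measured 19.0 and 14.4 FPKM in CFZ_EA, 19.1 and 26.2 FPKM in CFZ, and 17.2 and 13.3 FPKM in control. Its log2 fold change for CFZ against control was 0.63, and 0.32 without CFZ replicate 2. Atp2b4, a calcium pump of the surface membrane, measured 1.41 and 0.577 FPKM in CFZ_EA, 1.78 and 1.21 FPKM in CFZ, and 1.62 and 2.09 FPKM in control. Tmem65, also on this list, encodes a membrane protein that is not a pump. It measured 16.4 and 15.8 FPKM in CFZ_EA, 15.3 and 13.6 FPKM in CFZ, and 14.4 and 12.5 FPKM in control. Both CFZ_EA libraries were the highest for this gene.

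For mitochondrial calcium, Mcub, a subunit that dampens the uniporter, measured 1.32 and 1.28 FPKM in CFZ_EA, 1.26 and 1.45 FPKM in CFZ, and 1.83 and 7.10 FPKM in control. Control replicate 2 set its log2 fold change of -1.61 for CFZ and -1.67 for CFZ_EA against control, which without that library were -0.44 and -0.49. Without control replicate 1 they were -2.25 and -2.30, and edgeR called both (adjusted p = 0.0236 and 0.0288). Micu2, a gatekeeper of the uniporter, measured 18.4 and 17.6 FPKM in CFZ_EA, 18.0 and 18.6 FPKM in CFZ, and 15.8 and 16.6 FPKM in control, and its log2 fold change against control was 0.23 for CFZ and 0.22 for CFZ_EA. Camk2n1, an inhibitor of CaMKII, measured 4.17 and 4.54 FPKM in CFZ_EA, 3.67 and 3.37 FPKM in CFZ, and 4.55 and 4.80 FPKM in control. It was lowest in both CFZ libraries, with log2 fold changes of -0.35 ± 0.14 for CFZ against control and 0.32 for CFZ_EA against CFZ. Lrrc10, a heart-restricted leucine-rich repeat protein, measured 117 and 86.4 FPKM in CFZ_EA, 97.3 and 86.8 FPKM in CFZ, and 78.5 and 72.7 FPKM in control, and its log2 fold change for CFZ_EA against control was 0.49 ± 0.17, with 0.28 without CFZ_EA replicate 1. Sri, which encodes the RYR2 modulator sorcin, measured 4.50 and 3.82 FPKM in CFZ_EA, 4.43 and 4.86 FPKM in CFZ, and 4.57 and 8.17 FPKM in control, where control replicate 2 was again the highest.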

How the data were processed

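Polyadenylated RNA was sequenced as paired reads of 150 bases, from extracts with an RNA integrity number over 7, per the labels' protocols. Cutadapt 1.9, HISAT2 2.0.4, StringTie 1.3.4d and the build GRCm38 appear in the submitters' processing notes. What each tool did, the annotation release and the strand setting of counting are not stated there. Per the file headers, each library has an FPKM column and a count column as deposited by the authors. The deposited counts were handled as estimated counts, and each was rounded before the fit. The depth of the libraries is that of these counts, and it limits the precision least for the abundant genes.

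The filter kept genes whose FPKM averaged 1 or more over the libraries. edgeR 4.0.16 in R 4.3.3 fitted 1 model over all 6 libraries with group as its only term and TMM scaling, and its quasi-likelihood test was adjusted by Benjamini-Hochberg over 10329 genes, with 0.05 as the threshold. Standard errors and 95% intervals come from that fit. The steps were tested on simulated data without an outlying library, as a check of the code and not of the results given here. The members and gene lists were chosen with earlier results of these data known. All 9 members are named. Of the wider lists the rule took the 2 genes with the smallest p per list and comparison. Those with an unadjusted p of 0.1 or more were left out of the text after their values were seen. Cacna1c was added outside this rule. Alternatives were other scalings, filters and tests (DESeq2 1.42.0 and limma 3.58.1), only the groups compared, the replicate number as a block, and libraries left out. Promoter sequences came from RefSeq (GRCm38.p6), which matched 7 of the 9 genes, all but Atp2a2 and Trdn.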

Additional observations from a re-analysis of the deposited data

How the results depend on the processing

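No alternative called a member except DESeq2, which called 1, Camk2d for CFZ_EA against CFZ. Over all genes, edgeR called 3, 2 and 0 for CFZ against control, CFZ_EA against CFZ and CFZ_EA against control, and DESeq2 called 138, 55 and 51. Fitting only CFZ and control gave 0 calls between them. Leaving out control replicate 2 and CFZ_EA replicate 2 together gave 32 calls for CFZ against control and 1 for CFZ_EA against control. With 1 library left out, where the lone library of a group is assumed to vary like the others, edgeR called between 0 and 332 genes for CFZ against control, between 0 and 4 for CFZ_EA against CFZ and between 0 and 231 for CFZ_EA against control, and the highest counts against control came without control replicate 1. The cause was not tested. Scaled to the cardiomyocyte structural genes, the members' median was 0.062 for CFZ and -0.00011 for CFZ_EA against control. Over all tested genes the medians were then -0.23 and -0.21. In that scaling Atp2a2 had -0.00011, Pln -0.045 and Casq2 -0.019 for CFZ_EA against control. Camk2b had -0.28 for CFZ against control, and Jph2 had 0.0073 for CFZ_EA against CFZ. For CFZ against control, Camk2b was -0.080 with library totals, -0.029 with limma on log2(FPKM + 1) and -0.040 on log2(FPKM + 0.1). Trdn was 0.036 with no filter and 0.034 with edgeR's own filter, and these filters gave Camk2b 0.0078 and 0.0061 for CFZ_EA against control. With libraries left out, the members' median ran from 0.16 to 0.42 for CFZ and from 0.069 to 0.32 for CFZ_EA against control. Members that changed sign for CFZ against control ran from -0.017 to 0.50 (Pln), -0.76 to 0.75 (Camk2b) and -0.41 to 0.54 (Trdn). For CFZ_EA against CFZ they ran from -0.22 to 0.071 (Atp2a2), -0.24 to 0.054 (Casq2), -0.33 to 0.030 (Slc8a1), -0.71 to 0.74 (Camk2b), -0.15 to 0.13 (Jph2) and -0.14 to 0.78 (Trdn). For CFZ_EA against control they ran from -0.094 to 0.42 (Pln), -0.68 to 0.70 (Camk2b) and -0.54 to 0.93 (Trdn). Over all tested genes, replicate differences correlated between groups at 0.08, -0.07 and -0.07. In TMM-scaled log2 CPM, replicate 2 was below replicate 1 in every group for Atp2a2, Casq2, Slc8a1, Pln, Camk2d and Jph2. It was above replicate 1 in every group for Camk2b, and Ryr2 and Trdn had mixed signs. Some of these differences were small, such as -0.011 for Jph2 in control and -0.018 for Pln in CFZ. The share of all tested genes with the same sign in every group was not taken, so no background stands beside this. Whether the numbers pair the libraries for some genes was not tested. With the replicate block edgeR called 2, 2 and 0 genes and 0 members, and Camk2d had -0.80 for CFZ_EA against CFZ (adjusted p = 0.824). Slc8a1 with the block had 0.60 for CFZ and 0.45 for CFZ_EA against control. Its edgeR unadjusted p was then 0.00235 and 0.00787, and its adjusted p was 0.476 and 0.809. With 2 libraries per group, the fit resolves only differences well above the spread between libraries, and Camk2b and Trdn had the widest intervals.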
